A study of Mus musculus with 12 samples.

Results

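The effect of the TYK2 knockout on tumor-infiltrating CD8+ T cells (KOvsWT) was described across all genes in 4 of the 12 libraries of the study. These were the 2 libraries whose labels named CD8 T cells and TYK2KO (KO) and the 2 whose labels named CD8 T cells and WT. WT animals were C57BL/6N mice. The knockout animals were Tyk2-/- mice, in which the gene is disrupted throughout the body, on the same C57BL/6N background. The methods name the tm1Biat allele without a transgene for the tumor mice, the sample names in the supplement carry CMV, the tag of the knockout strain that also has a CMV-cre transgene, and the labels give only TYK2KO, so the strain of these mice is not settled here. Mice were matched for sex and age and were 6 to 12 weeks old. Each received the colon adenocarcinoma line MC38 under the skin of both flanks, and the tumors were taken after 8 to 10 days. From the digested tissue 300 cells positive for CD45, CD3ε and CD8a were sorted per library. Both the T cells and the other host cells of the tumor lacked TYK2 in the knockout mice, so effects within the T cells and effects of the surrounding host cells cannot be told apart. The other 8 libraries came from NK cells and from mice with a kinase-inactive TYK2 (KE), and they served to estimate the spread and for side-by-side values. The sources used here do not say whether replicates came from separate animals, so p-values measure the spread between these samples, which may be technical.

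TYK2 is a Janus kinase that sits on a chain of the receptors for type I interferons, IL-12, IL-23 and the IL-10 family, and it phosphorylates STAT proteins when a cytokine binds. Type I interferons act through a complex of STAT proteins with IRF9, which binds interferon-stimulated response elements and induces interferon-stimulated genes (ISG), many of which block viruses or amplify the response. CD8+ T cells kill tumor cells with perforin and granzymes and secrete IFNγ, and both type I interferon and IL-12 are known to act on them during priming and effector differentiation.

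The 4 libraries held between 11825714 and 14732882 counts, with 13440 to 13979 genes detected by at least 1 count. Values are given as CPM, counts per 1e6 counts of the library, scaled with TMM factors. A count of 0 allows a level of up to 3 counts, which corresponded to 0.218 to 0.249 CPM. This floor covers counting error only, since amplified reads carry no molecular identifiers. Mitochondrial genes took 4.50% to 6.62% of counts. Across genes, which are not independent replicates, Pearson's r of log2 CPM was 0.766 between the WT libraries, 0.789 between the KO libraries and 0.758 to 0.787 between KO and WT libraries. The values between replicates were close to those between genotypes, and replicates differed beyond counting noise.

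The targeted transcript did not separate the genotypes. Tyk2 (chr9:21104068-21131243, minus strand, GRCm38) was counted at 48.3 and 86.1 CPM in WT and at 61.9 and 73.8 CPM in the libraries labelled KO, and the KO values lay between the WT values. Gene-level counts cannot tell which exons a transcript holds, so the labels were not checked by it, and KO stands below for libraries labelled KO. The genes of the sort gate were abundant in all 4 libraries. Cd8a lay at 2843 and 3851 CPM in WT and 4043 and 2825 CPM in KO, Cd8b1 at 2073 and 1977 against 2372 and 1934 CPM, and Cd3e at 968 and 994 against 1452 and 1011 CPM. Klrb1c and Ncr1, the NK cell receptors NK1.1 and NKp46, had 21 to 33 counts in all 4 libraries, or 1.52 to 2.74 CPM, against 843 to 2152 CPM in the WT and KO libraries of NK cells. Xist had at most 7 counts and the Y-linked Ddx3y was counted in each library.

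Markers of other cells were counted in all 4 libraries (plot of marker sums by library). The 10 NK cell genes summed to 6376 and 545 CPM in WT and 208 and 1306 CPM in KO, which overlapped and differed between replicates. Gzma, which CD8+ T cells also express, gave most of that sum in WT 1 and KO 2, at 6218 and 1125 CPM. Macrophage and monocyte genes summed to 549 and 842 CPM in WT and 520 and 340 CPM in KO, with 13 of 17 genes detected in all 4 libraries. Dendritic cell genes summed to 162 and 329 against 359 and 80.1 CPM, and B cell genes to 162 and 420 against 544 and 167 CPM, with 7 of 11 B cell genes at 0 in all 4. Neutrophil genes summed to 136 and 26.1 against 72.1 and 124 CPM, with 8 of 12 genes at 0. The dendritic cell, B cell and neutrophil sums overlapped between the genotypes, whereas both KO libraries lay below both WT libraries for the macrophage and monocyte sum. The same held for the list of CD4 and regulatory T cells, at 1595 and 1546 CPM in WT and 1121 and 1149 CPM in KO. Cd4 itself had no count in any of the 4 libraries. Foxp3, the factor that defines regulatory T cells, had 207 and 632 counts in WT and 0 in both KO libraries, which is at least 128-fold lower against the floor of 3 counts per library (edgeR FDR 0.887, not called). Cd40lg of the same list had the opposite sign, with 314 counts in KO 2 and 0 in the other 3 libraries. Stromal and endothelial genes summed to 973 and 1127 CPM in WT and 1082 and 1058 CPM in KO and overlapped. Most of that sum was Vim, while Dcn, a fibroblast gene, had 235 and 164 counts in WT and 2 and 0 in KO. Of the 7 genes tested in this list, 5 had a negative and 2 a positive log2 fold change. Tumor epithelial genes summed to 23.7 to 32.7 CPM and erythroid genes to 0.415 to 13.7 CPM. Whether these cells or transcripts contributed to any difference below was not tested, and in bulk RNA fewer cells of a type and less RNA per cell cannot be told apart.

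**Figure D1:**
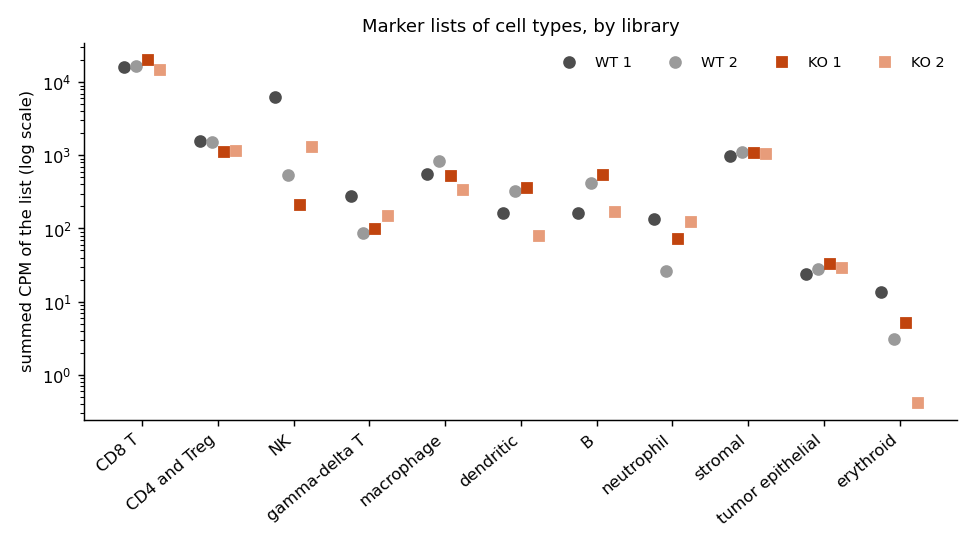
Summed CPM (log scale) of lists of cell type marker genes in the 2 WT (circles) and 2 KO (squares) libraries; each point is 1 library. CD8 T cell genes summed to 14570 to 20270 CPM and tumor epithelial genes to 23.7 to 32.7 CPM, and in the macrophage list and the CD4 and Treg list both KO points lie below both WT points.

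Of 13279 genes tested with edgeR, 7 were DEG in KOvsWT (0.0527% of genes), 4 lower (0.0301%) and 3 higher (0.0226%). A gene was a DEG when its FDR was under 0.05 and its level differed at least 2-fold, that is by 1 on the log2 scale. The genes that fell were Trdc, Klrb1f, Ly6c2 and Trim30a, and those that rose were Car2, Gm20743 and Arrdc4. At an unadjusted p under 0.05, called the nominal level below, there were 337 lower (2.54%) and 303 higher genes (2.28%), together 4.82% of genes. Both KO libraries lay below both WT libraries for 15.3% of genes and above them for 16.7%. The median log2 fold change of all genes was 0. The count of DEG depended on single libraries and on the model, with 1 (Car2) without KO 1 or without KO 2, 4 without WT 1, 6 without WT 2, 0 when the 6 CD8 libraries were filtered, scaled and fitted alone (12669 genes tested) and 234 with DESeq2. All 7 DEG kept their direction in each of these.

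**Figure D2:**
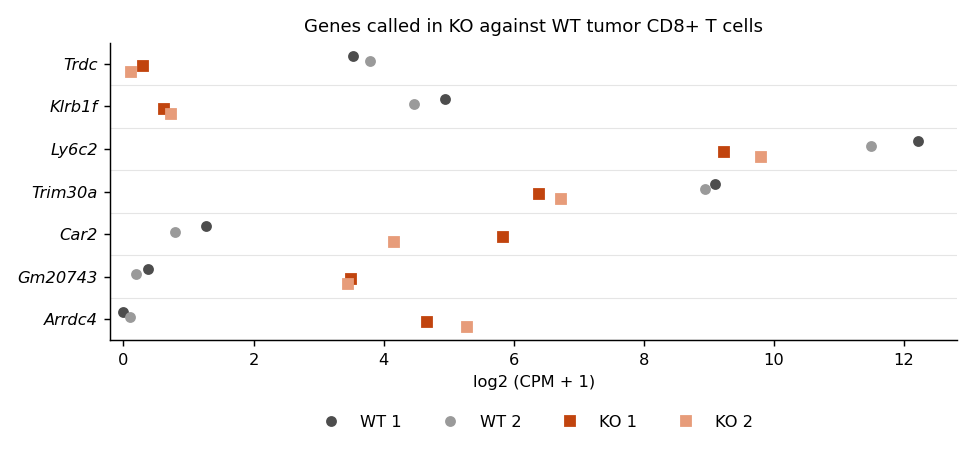
Level of the 7 DEG of KOvsWT, as log2 (CPM + 1), in the 2 WT (circles) and 2 KO (squares) libraries; each point is 1 library. The groups do not overlap for any of the 7, with Trdc, Klrb1f, Ly6c2 and Trim30a lower in KO and Car2, Gm20743 and Arrdc4 higher.

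The most abundant DEG was Ly6c2 (chr15:75108158-75111970, minus strand), which encodes the surface protein Ly6C of activated and memory CD8+ T cells and of monocytes. It was counted at 4740 and 2885 CPM in WT and at 600.3 and 890.3 CPM in KO. Both KO libraries lay far below both WT libraries. The log2 fold change was -2.35 (SE 0.31, FDR 0.0371). In KE it lay at 1213 and 1588 CPM, between the WT and KO values, and the log2 fold change of KEvsWT was -1.45 (FDR 0.181). Of the 5 other genes tested in the list of Ly6 proteins and Plac8, Ly6e, at 1666 and 1767 CPM in WT and 881 and 1119 CPM in KO, had a log2 fold change of -0.78 (FDR 0.491), and Plac8, at 1151 and 1167 against 534.5 and 387 CPM, had -1.33 (FDR 0.580). Neither gene overlapped between the genotypes. Ly6a, which encodes Sca-1, lay at 3529 and 2524 against 909 and 623 CPM (log2 fold change -1.98, FDR 0.887). Reads that align to several places had been left out, so genes of this family, which holds similar copies, may be undercounted.

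Trim30a (chr7:104409025-104465193, minus strand), an interferon-inducible ubiquitin ligase family member that dampens inflammatory signaling, was the only DEG found in the ISG lists used here. These lists held 218 genes of the count table, and the list of Ly6 proteins and Plac8 was not among them. The study compiled a larger list, so the other DEG may still be ISG. Trim30a had 545 and 491.5 CPM in WT and 82.7 and 104.8 CPM in KO, with a log2 fold change of -2.47 (SE 0.34, FDR 0.0487). In KE it lay at 98.5 and 72.1 CPM (KEvsWT -2.60, FDR 0.0366). Its neighbors in the same gene cluster on chromosome 7 differed among themselves. Trim30d lay at 124 and 103 CPM in WT and at 0.612 and 7.55 CPM in KO (log2 fold change -4.80, FDR 0.887). Trim5, an antiviral restriction factor, had 1 and 2 counts in WT and 333 and 223 counts in KO, or 25.5 and 18.5 CPM (log2 fold change 7.52, FDR 0.0634, just above the threshold). Trim30a and Trim30d were lower and Trim5 higher in both KO libraries, although only the Trim30a difference was called. The fitted value of Trim5 rests on 3 counts in WT and is not a bound, and another gene overlaps it on the same strand.

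Trdc (chr14:54142851-54148868, plus strand), which encodes the constant part of the δ chain of T cell receptors, had 143 and 177 counts in WT and 3 and 1 in KO. This corresponds to 10.6 and 12.8 CPM against 0.230 and 0.083 CPM, with a log2 fold change of -6.13 (SE 0.60, FDR 0.0121) that rests on few counts in KO and is not a bound. In KE it was as scarce as in KO, at 0.248 and 0.220 CPM (KEvsWT -5.59, FDR 0.00938). In NK cells, where the same transcript was more abundant, it lay at 112.5 and 215 CPM in WT and 240.1 and 313.5 CPM in KO. The difference between the KO effects in CD8+ T and NK cells was -6.88 on the log2 scale (SE 0.73, FDR 0.0279), and this was the only gene of 13279 to pass in that contrast (0.00753%). The difference did not pass when any of the 4 libraries was left out (FDR 0.0653 without WT 2 to 0.168 without KO 1). Several other genes of γδ T cells were too scarce for a fall to be seen. Trdv4 had at most 5 counts, and Sox13, Blk, Il23r, Zbtb16 and Il17a had none in any of the 4 libraries. Tcrg-C2, a γ chain constant region, lay at 268 and 33.5 CPM in WT and 71.9 and 136 CPM in KO, and it overlapped between the genotypes. The summed γδ list lay at 279 and 85.6 CPM in WT and 98.8 and 147 CPM in KO. Trdc overlaps 2 annotated genes on the opposite strand, and reads of this library type may not tell the strands apart.

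Klrb1f (chr6:129045901-129057464, plus strand), an activating receptor of the NKR-P1 family, had 29.7 and 21.1 CPM in WT and 0.536 and 0.664 CPM in KO. The log2 fold change was -5.39 (SE 0.58, FDR 0.0121). In KE it lay at 1.74 and 0.513 CPM (KEvsWT -4.50, FDR 0.0289). In NK cells it lay at 325 and 456 CPM in WT and 672 and 436 CPM in KO, and the KO effect in CD8+ T cells minus that in NK cells was -5.89 (SE 0.72, FDR 0.0501), just outside the threshold. Its family members on chromosome 6 gave no such pattern. Klrb1c had 31 and 32 counts in WT and 32 and 33 in KO, and Klrb1a and Klrb1b overlapped between the genotypes. Among the 28 NK-type receptors and adaptors tested, 5 were lower and 2 higher at the nominal level, with a median log2 fold change of -0.09. Klra4, a Ly49 receptor, had 136 and 79 counts in WT and 12 and 8 in KO (log2 fold change -3.30, FDR 0.257). Klra3, another Ly49 receptor, had 3 and 3 counts in WT and 52 and 8 in KO (3.35, FDR 0.887). Ly49 genes are near-identical copies in part, so their counts are uncertain. Klrd1, Klrc1 and Klrk1, which encode CD94, NKG2A and NKG2D, were abundant, with log2 fold changes of 0.35, -0.16 and -0.09.

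Car2 (chr3:14886273-14900770, plus strand), the cytosolic carbonic anhydrase that interconverts CO2 and bicarbonate, had 1.41 and 0.726 CPM in WT and 55.8 and 16.9 CPM in KO. The groups did not overlap, and the KO libraries differed from each other more than the WT libraries did. The log2 fold change was 5.08 (SE 0.55, FDR 0.0121). In KE it lay at 14.1 and 14.2 CPM, above both WT and below both KO libraries (KEvsWT 3.72, FDR 0.0366). Of the other carbonic anhydrases Car14, Car9 and Car13 had no count in KO, and Car5b lay at 28.7 and 12.5 CPM in WT and 10.3 and 19.0 CPM in KO. No carbonic anhydrase tested had both KO libraries below both WT libraries.

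Arrdc4 (chr7:68736995-68749241, minus strand), an α-arrestin related to the glucose uptake regulator Txnip, had 0 and 1 counts in WT and 318 and 455 counts in KO, or 24.3 and 37.8 CPM (FDR 0.0445). With 1 count in WT the fitted log2 fold change of 9.39 is not a bound. In KE it lay at 43.0 and 68.5 CPM (KEvsWT FDR 0.0347). The related genes Txnip and Arrdc1 overlapped between the genotypes, at 262.5 and 336.5 against 144 and 315 CPM and at 79.4 and 85.8 against 135 and 55.6 CPM. Arrdc3 lay at 33.8 and 40.9 CPM in WT and 15.5 and 1.74 CPM in KO (log2 fold change -2.12, FDR 0.887).

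Gm20743 (chr1:164863133-164936775, plus strand) is a processed transcript without a known protein. It had 4 and 2 counts in WT and 135 and 120 in KO, or 0.297 and 0.145 against 10.3 and 9.96 CPM (log2 fold change 5.46, SE 0.65, FDR 0.0196). In KE it lay at 42.0 and 23.3 CPM (KEvsWT 7.15, FDR 0.00938). Xcl1 (chr1:164931644-164935527, minus strand), the chemokine by which activated CD8+ T cells attract cross-presenting dendritic cells, lies within its span on the other strand. Xcl1 had 21.3 and 32.7 CPM in WT and 198 and 193 CPM in KO (log2 fold change 2.86, SE 0.59, FDR 0.281). Both KO libraries lay above both WT libraries for the pair, and where reads carry no strand the counts of overlapping exons cannot be assigned.

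**Figure D3:**
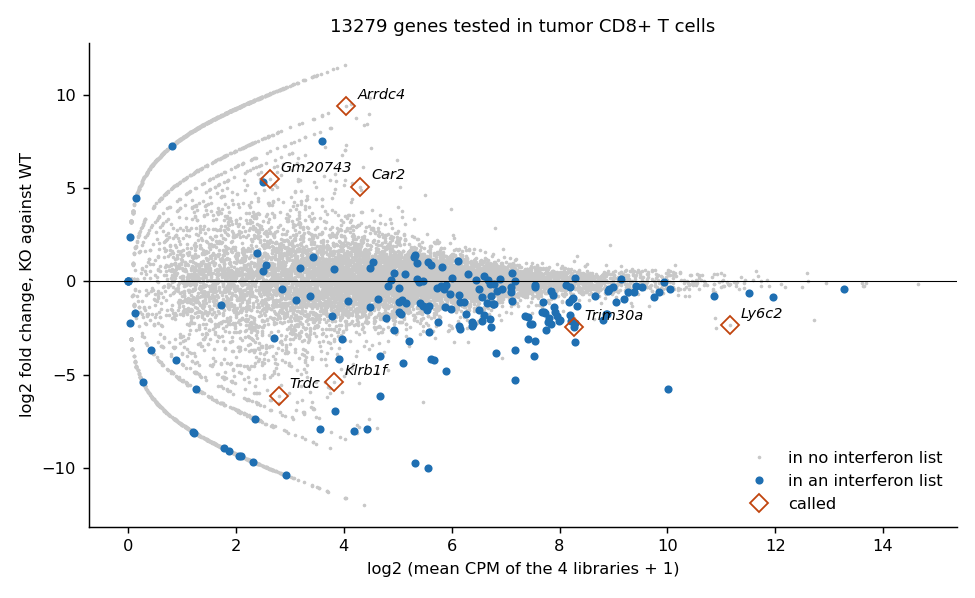
Log2 fold change of KOvsWT (y axis) against level, as log2 (mean CPM of the 4 libraries + 1) (x axis), for the 13279 genes tested; gray points are genes in no ISG list, blue points the 188 tested genes of the 12 ISG lists, and open diamonds the 7 DEG. Blue points lie mostly below 0, with a median of -1.14 against 0 for the other genes, and curved lines of points at low levels are genes with 0 counts in one genotype.

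The genes next to the DEG were the 12 lower and 12 higher genes with the smallest unadjusted p among those with at least 20 CPM in the higher group and no overlap between genotypes. None passed the FDR threshold in the main fit, although each had an FDR under it in some alternative setting. Of the 12 lower genes, 11 were in an ISG list, and their FDR ran from 0.0634 to 0.257. The 12 higher genes ran from 0.0634 to 0.581, and 1 of them, Trim5, was in an ISG list.

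Most of the lower genes encode antiviral effectors and nucleic acid enzymes. Ifi27l2a, a small interferon-induced protein, lay at 1868 and 2205 CPM in WT and 34.1 and 40.2 CPM in KO (log2 fold change -5.78, SE 1.15, FDR 0.257). The values within each genotype lay close together. Xaf1, a pro-apoptotic factor, lay at 359 and 377 against 70.7 and 51.2 CPM (-2.59, FDR 0.110). Zbp1, a sensor of Z-form nucleic acid, lay at 362 and 358 against 95.1 and 64.0 CPM (-2.18, FDR 0.134). The dNTP hydrolase Samhd1 lay at 840.4 and 621 against 266 and 163 CPM (-1.77, FDR 0.129), and the exonuclease Isg20 at 629.7 and 395.5 against 114 and 100.3 CPM (-2.26, FDR 0.143). In each of these the lowest WT value was well above the highest KO value.

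Lgals9, the galectin that binds the checkpoint receptor TIM-3, lay at 710.5 and 734 CPM in WT and 202 and 221 CPM in KO (-1.77, FDR 0.113). Samd9l, a translation-restricting antiviral gene, lay at 252 and 327.5 against 55.0 and 63.4 CPM (-2.29, FDR 0.156). The p200 genes Ifi209 (404 and 565 against 103 and 116 CPM, FDR 0.170) and Ifi206 (397 and 312 against 111 and 71.9 CPM, FDR 0.170) and the guanylate-binding protein Gbp7 (409.6 and 321.5 against 119.6 and 114 CPM, FDR 0.165) gave log2 fold changes of -2.14, -1.95 and -1.65. Oasl2, an OAS-like protein, had 167 and 773 counts in WT and 1 and 2 in KO (FDR 0.0634), and its fitted value of -8.04 is not a bound.

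**Figure D4:**
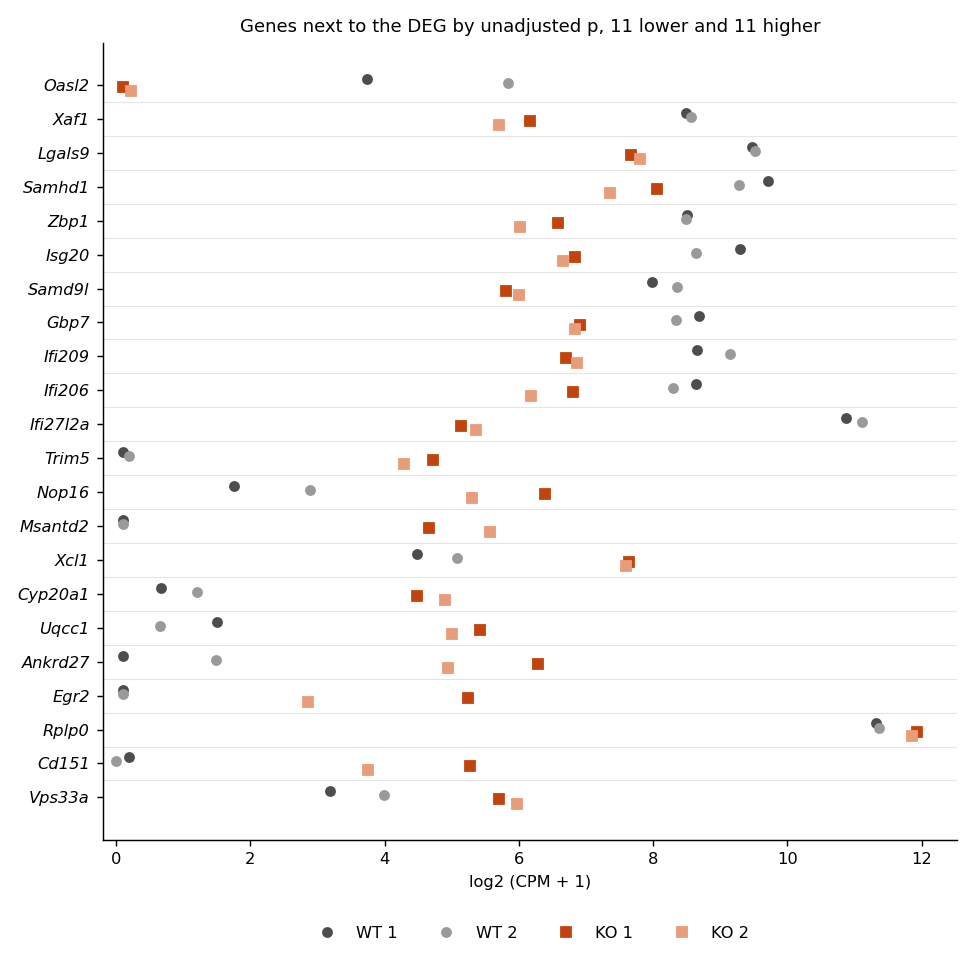
Levels, as log2 (CPM + 1), of 11 of the 12 lower and 11 of the 12 higher genes with the smallest unadjusted p after the DEG, in the 2 WT (circles) and 2 KO (squares) libraries; each point is 1 library. The lower genes were expressed in KO as well, except Oasl2 with 1 and 2 counts, while Trim5, Msantd2, Egr2 and Cd151 had 0 to 2 counts in WT, and the rule took only genes without overlap.

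Several of the higher genes were barely counted in WT. Trim5, Msantd2, Egr2 and Cd151 had 0 to 2 counts in each WT library. Egr2, a transcription factor induced by T cell receptor signals, had 1 and 1 counts in WT and 481 and 75 in KO (FDR 0.491). Those with a higher WT level were Xcl1, described above, the nucleolar ribosome biogenesis factor Nop16, at 2.37 and 6.39 against 83.3 and 38.4 CPM (3.79, SE 0.74, FDR 0.248), the lysosomal tethering factor Vps33a, at 8.15 and 15.0 against 51.1 and 61.6 CPM (2.29, FDR 0.581), and the ribosomal stalk protein Rplp0. Rplp0 was abundant and close between replicates, at 2560 and 2635 CPM in WT and 3915 and 3686 CPM in KO (0.55, SE 0.13, FDR 0.498). The orphan cytochrome P450 Cyp20a1, the complex III assembly factor Uqcc1 and the endosomal protein Ankrd27 had 1 to 25 counts in WT and 280 to 1008 in KO.

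Reference promoters were read for the interferon-stimulated response element core, GAAA, any 2 bases and GAAA again, on either strand, in the 250 bases before and 50 after the start sites (RefSeq, GRCm38.p6). The motif was found in 1131 of 32851 promoters (3.44%). It was present for 1 of the 3 fallen DEG with an entry (Trim30a), 3 of 9 of the next lower genes with an entry (Gbp7, Lgals9 and Ifi206), 1 of 11 of the next higher genes (Trim5), and neither of the 2 risen DEG with an entry. The second motif, TTCNNNGAA, a gamma-activated site, was in 2726 promoters (8.30%) and in those of Klrb1f, Gbp7, Isg20, Samhd1 and Rplp0 here. The motifs do not overlap in the sequences shown. These 5 promoters are printed because they carry the interferon motif and belong to genes on both sides of the comparison. They run 5′ to 3′ on the strand of the gene, with motif matches in capitals, the response element core in all and TTCNNNGAA in Gbp7 as well. A match is a description of these letters and does not show that a factor binds.
Trim30a, chr7:104465144-104465443, minus strand: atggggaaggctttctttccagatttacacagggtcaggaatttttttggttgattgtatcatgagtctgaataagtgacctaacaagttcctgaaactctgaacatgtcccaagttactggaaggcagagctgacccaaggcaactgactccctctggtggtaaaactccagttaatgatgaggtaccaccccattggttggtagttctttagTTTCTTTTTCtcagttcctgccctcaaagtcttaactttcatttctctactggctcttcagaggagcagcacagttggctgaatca
Lgals9, chr11:78984875-78985174, minus strand: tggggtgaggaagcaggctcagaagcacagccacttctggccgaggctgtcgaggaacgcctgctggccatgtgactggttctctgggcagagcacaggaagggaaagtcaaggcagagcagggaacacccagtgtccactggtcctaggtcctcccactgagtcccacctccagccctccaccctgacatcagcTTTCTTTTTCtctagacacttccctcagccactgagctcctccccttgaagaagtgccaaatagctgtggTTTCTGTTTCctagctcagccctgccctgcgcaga
Gbp7, chr3:142530086-142530385, plus strand: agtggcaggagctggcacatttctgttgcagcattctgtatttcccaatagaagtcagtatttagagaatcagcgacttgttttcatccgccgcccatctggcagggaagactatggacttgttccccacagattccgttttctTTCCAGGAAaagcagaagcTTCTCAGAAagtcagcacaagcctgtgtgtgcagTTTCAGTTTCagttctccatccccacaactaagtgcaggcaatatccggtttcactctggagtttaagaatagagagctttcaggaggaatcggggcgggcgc
Ifi206, chr1:173491269-173491568, minus strand: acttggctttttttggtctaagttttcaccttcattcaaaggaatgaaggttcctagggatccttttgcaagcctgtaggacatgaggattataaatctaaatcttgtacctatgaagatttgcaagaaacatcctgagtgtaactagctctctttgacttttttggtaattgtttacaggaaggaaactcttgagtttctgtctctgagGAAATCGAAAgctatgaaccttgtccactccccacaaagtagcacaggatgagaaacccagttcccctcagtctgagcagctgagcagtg
Trim5, chr7:104288057-104288356, minus strand: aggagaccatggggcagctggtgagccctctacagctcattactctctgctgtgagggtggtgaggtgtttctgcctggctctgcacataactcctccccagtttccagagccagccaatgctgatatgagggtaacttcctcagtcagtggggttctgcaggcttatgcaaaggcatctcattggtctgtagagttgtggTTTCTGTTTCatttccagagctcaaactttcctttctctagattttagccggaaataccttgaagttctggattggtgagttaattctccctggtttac
Counted from the start site, the match to the response element core began at position -36 in Trim30a, -53 in Gbp7, -40 in Ifi206 and -49 in Trim5, and Lgals9 held 2 matches, 1 before and 1 after the start site. Another Trim30a promoter, not printed, held its match at position 2. The promoters of Trim30a, Lgals9, Gbp7 and Ifi206 belong to genes with lower counts in KO and that of Trim5 to a gene with higher counts.

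ISG as a group lay lower in KO. Of 188 genes tested in at least 1 of the 12 ISG lists, 67 were lower and 1 was higher at the nominal level, beside 337 and 303 of all 13279 genes. A negative log2 fold change was found for 150 of them (47.2% of all genes) and a positive one for 35 (49.1% of all genes). For 107 of them both KO libraries lay below both WT libraries (15.3% of all genes), and for 15 above them (16.7% of all genes). Their median log2 fold change was -1.14, or -1.09 with genes at 0 set to the floor, beside 0 for all genes. Their mean log2 CPM was 5.73 and 5.88 in the WT libraries and 4.45 and 4.33 in the KO libraries, while that of the 13091 other genes was 3.08 and 3.21 against 3.24 and 3.23. No set test was run. The lists were chosen with earlier results of these data known, so these values are a description and not an independent check. Of the 188, 1 was a DEG, and the number depended on the model, with 36 lower and 1 higher by DESeq2, 32 lower and 1 higher without the filter on low counts, and 0 with the filter of edgeR. The macrophage and the CD4 and regulatory T cell sums were also lower in both KO libraries, and their part in these differences was not tested.

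The robust ISG had a median of -1.96, or -1.87 with genes at 0 set to the floor, over the 47 of 65 genes tested, with 17 lower and 0 higher at the nominal level. The common mammalian ISG had a median of -0.74 over 83 of 96 genes, 24 of them lower and 0 higher. Rnf213, a large ubiquitin ligase, lay at 505 and 325 against 57.9 and 138 CPM (-2.08, FDR 0.581) and Dtx3l, another, at 253.5 and 285 against 59.2 and 83.3 CPM (-1.92, FDR 0.575). The tunable ISG had a median of -0.78 over 11 of 18 genes, 2 of them lower and 0 higher, and the median was 0 without WT 2 and -2.08 in a fit of the 4 libraries alone.

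**Figure D5:**
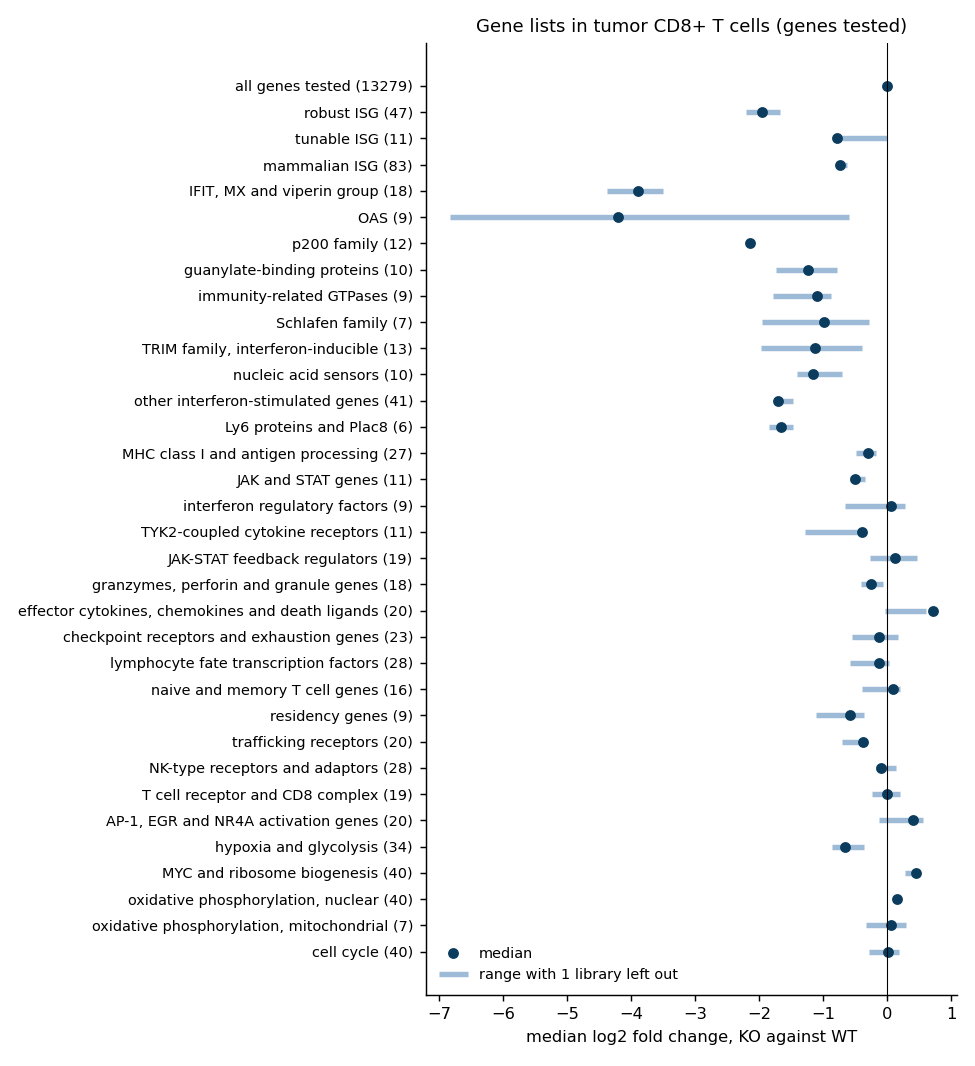
Median log2 fold change of KOvsWT (x axis) for each gene list, with the number of genes tested in brackets; dots are the medians with all libraries and bars the range of the median when 1 of the 4 libraries was left out, and the top dot is the median of all 13279 genes. The IFIT and MX group at -3.90 and the p200 family at -2.14 stayed below 0 throughout, the OAS list ranged from -6.83 to -0.60, and the cell cycle list lay at 0.01.

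Among ISG families the IFIT, MX and viperin group, which blocks viral RNA and virus assembly, leaned lower, although none of its genes was called. All 18 genes tested had a negative log2 fold change (47.2% of all genes did). For 16 of them both KO libraries lay below both WT libraries (15.3% of all genes). The nominal level was passed by 9, and the median was -3.90. Rtp4, an inhibitor of viral replication, lay at 395 and 296 CPM in WT and 17.0 and 26.8 CPM in KO (-3.98, SE 0.89, FDR 0.409). Usp18, which both removes ISG15 and blocks the interferon receptor, lay at 316 and 241 against 1.38 and 12.7 CPM (-5.31, SE 1.47, FDR 0.721). Herc6, the mouse ligase for ISG15, lay at 95.3 and 87.4 against 2.91 and 7.22 CPM (-4.17, FDR 0.581). Cmpk2 had 49.3 and 136 CPM in WT and 1 count in each KO library, and Rsad2, which encodes viperin, 111 and 44.7 CPM in WT and 1 count in each KO library. Mx1, at 163 and 256.5 against 11.8 and 17.8 CPM, and Ifit3, at 232 and 300 against 40.5 and 1.41 CPM, also did not overlap.

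The p200 family, which includes DNA sensors, had 8 of 12 genes tested lower and 0 higher at the nominal level and a median of -2.14. For 10 of its genes both KO libraries lay below both WT libraries (15.3% of all genes). Ifi203 lay at 487 and 425 against 199.8 and 161 CPM (-1.34, FDR 0.581). Mndal lay at 453 and 334 against 204 and 166 CPM (-1.09, FDR 0.887), and Ifi208 was the exception, with both KO libraries higher, at 22.8 and 64.1 against 70.7 and 117 CPM. Members of this family are similar in sequence. The OAS list was sparser, with 9 of 13 genes tested, 3 lower at the nominal level and a median of -4.20, which was -3.44 with genes at 0 set to the floor, -6.83 without KO 1 and -0.60 without WT 1. Oas2 was counted only in WT 1 (357 counts), and Oas1c lay at 66.2 and 30.6 CPM in WT and 0.919 and 0.415 CPM in KO.

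GTPase families that act on intracellular vacuoles had smaller medians. The guanylate-binding proteins had 4 of 10 genes lower and 0 higher at the nominal level and a median of -1.24, or -0.78 without WT 1 and -1.10 with genes at 0 set to the floor. Gbp9 lay at 308 and 325 against 109.7 and 92.0 CPM (-1.65, FDR 0.887) and Gbp4 at 855 and 592 against 420.2 and 258 CPM (-1.09, FDR 0.887), while Gbp5 had 0 and 0.435 CPM in WT and 10.7 and 7.47 CPM in KO. All 9 immunity-related GTPases tested had a negative log2 fold change (47.2% of all genes did). Their median was -1.09 (-1.78 without KO 1, -0.95 with genes at 0 set to the floor), and 4 passed the nominal level. Ifi47 lay at 1081 and 1135 against 601 and 625 CPM (-0.85, SE 0.20, FDR 0.459), with replicates close in both genotypes, and Irgm1 at 491 and 297 against 209 and 216 CPM (-0.89, FDR 0.887). Schlafen genes, which restrain lymphocyte growth and translation, had a median of -0.98 over 7 genes (-1.96 without KO 1 and -0.28 without WT 1), with Slfn8 at 109 and 159 against 28.1 and 30.7 CPM (-2.19, FDR 0.477) and Slfn2 at 862 and 599 against 473 and 517 CPM (-0.56, FDR 0.887). The TRIM list had 2 lower and 1 higher of 13 and a median of -1.13, or -1.97 without KO 1 and -0.40 without WT 2.

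Nucleic acid sensors had 2 of 10 genes lower and 0 higher at the nominal level, with a median of -1.15, or -0.70 without KO 1. Ddx58, which encodes RIG-I, lay at 205 and 388.5 against 61.5 and 58.4 CPM (-2.31, FDR 0.869). Mavs, the adaptor of RIG-I, lay at 2.59 and 41.6 CPM in WT and 57.4 and 51.3 CPM in KO. The list of further ISG had 24 of 41 genes lower and 0 higher and a median of -1.71. Ms4a4b, a lymphocyte membrane protein, was abundant, at 5245 and 4903 CPM in WT and 2774 and 2902 CPM in KO (-0.84, SE 0.17, FDR 0.257). Lgals3bp, a secreted glycoprotein, lay at 678 and 760.3 against 176 and 163 CPM (-2.08, FDR 0.257), and Phf11b at 456 and 452 against 154 and 105 CPM (-1.81, FDR 0.271). MHC class I and antigen processing genes had 4 of 27 lower and 0 higher and a median of -0.30, or -0.49 without KO 1 and -0.18 without KO 2. B2m, the light chain of MHC class I, lay at 11200 and 11510 against 9019 and 8138 CPM (-0.40, SE 0.13, FDR 0.887) and H2-Q6 at 605 and 596 against 399 and 421 CPM (-0.55, FDR 0.887).

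The components upstream of these genes were compared from receptor to regulator. Of 11 chains tested of cytokine receptors that use TYK2, whether or not the chain itself binds it, 1 was lower at the nominal level. Their median was -0.40, or -1.28 without KO 1 and -0.19 with the filter of edgeR. It was 0 with genes that had no count in one genotype set to the floor. The lower gene was Il10ra, the ligand-binding chain of the IL-10 receptor, at 543 and 433 CPM in WT and 129 and 116 CPM in KO (-1.99, SE 0.52, FDR 0.581). The receptor chain Ifnar1 overlapped between genotypes, at 154 and 215 against 186 and 54.3 CPM, and Il4ra lay at 44.0 and 52.0 against 11.7 and 19.8 CPM (-1.61, FDR 0.887). JAK and STAT genes had 2 of 11 lower and a median of -0.51. Stat2 lay at 181 and 124 CPM in WT and 29.9 and 40.8 CPM in KO (-2.11, SE 0.80, FDR 0.887), and Stat5b and Stat6 had log2 fold changes of -1.41 and -0.51 (FDR 0.887 and 1).

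Interferon regulatory factors differed among themselves, with a median of 0.06 over 9 genes. Irf7, which amplifies type I interferon responses, lay at 307 and 299 CPM in WT and 52.4 and 19.8 CPM in KO (-3.07, SE 0.69, FDR 0.409). Irf9 lay at 88.2 and 286 against 106 and 73.3 CPM and overlapped. Irf5 was counted mostly in 1 library. Feedback regulators had a median of 0.12 over 19 genes, with only Usp18 lower at the nominal level. Ptprc, which encodes the phosphatase CD45, lay at 2518 and 2105 against 1889 and 2014 CPM.

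Cytotoxic genes did not move together. Gzmb, the granzyme that triggers caspases in target cells, lay at 12750 and 9097 CPM in WT and 2578 and 2645 CPM in KO, and the groups were far apart (-2.07, SE 0.59, FDR 0.829). Gzmk lay at 1056 and 801 against 443 and 305 CPM (-1.31, FDR 0.887), and Lamp1, a granule membrane protein shown at the surface on degranulation, at 239 and 265 against 142 and 126 CPM (-0.91, FDR 0.887). Prf1, the pore-forming perforin, overlapped, at 655 and 791 against 839 and 340.5 CPM, and Gzma ranged from 17.2 CPM in KO 1 to 6218 CPM in WT 1. Granzyme, perforin and granule genes together had 3 of 18 lower and 0 higher at the nominal level and a median of -0.25. Gzmf had 76.1 CPM in KO 2 and at most 0.842 CPM in the other 3 libraries.

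Secreted effectors were mixed. Of 20 cytokine, chemokine and death ligand genes tested, 0 were lower and 2 higher at the nominal level. A positive log2 fold change was found for 13 (49.1% of all genes), and the median was 0.72. Ifng lay at 205 and 158 CPM in WT and 564 and 351 CPM in KO (1.33, SE 0.70, FDR 0.887), and Tnf at 2.97 and 10.3 against 57.8 and 25.3 CPM (2.65, FDR 0.887). Neither overlapped between genotypes. The other gene besides Xcl1 at that level was Cd40lg, counted only in KO 2 (314 counts). The groups overlapped for 14 of the 20 genes, beside 9029 of all 13279 genes. The median of the list was 0.15 without KO 1, -0.03 without KO 2 and 0.0968 when taken from log2 CPM with a prior count of 2.

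Checkpoint and exhaustion genes were near 0, with a median of -0.12 over 23 genes, 1 lower and 2 higher. Pdcd1, which encodes PD-1, lay at 1442 and 1467 against 1710 and 1157 CPM (-0.02, SE 0.88). Cd160, an inhibitory and costimulatory receptor, lay at 219 and 282 against 539 and 413 CPM (0.93, FDR 0.887), and Cd200 at 1.93 and 1.81 against 96.7 and 26.6 CPM (5.04, FDR 0.887). Lymphocyte fate factors had a median of -0.12 over 28 genes. Runx3, which maintains the CD8 lineage, lay at 78.3 and 143 against 231 and 207 CPM (0.98, SE 0.33, FDR 0.887), and Tcf7, a factor of stem-like cells, overlapped at 105 and 60.2 against 51.3 and 127 CPM. Naive and memory genes had a median of 0.10 over 16. The T cell receptor and CD8 complex had 0 of 19 at the nominal level in either direction by edgeR, none called, and a median of 0.00, with Trac at 1299 and 1921 against 2831 and 1404 CPM.

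Homing receptors included several lower values. Of 20 trafficking genes, 6 were lower and 0 higher at the nominal level, with a median of -0.38, or -0.71 without KO 1. These included Ccr2, the CCL2 receptor, at 469 and 328 CPM in WT and 151 and 113 CPM in KO (-1.60, SE 0.40, FDR 0.575), and the gut homing integrin Itgb7, at 346 and 243 against 94.3 and 128 CPM (-1.40, FDR 0.869). S1pr5 and Ccr9 were near 0 in KO. Residency genes had a median of -0.58 over 9 genes, or -1.12 without KO 2 and -0.36 without WT 1. Itgae, which encodes CD103, had 637 and 204 counts in WT and 0 in both KO libraries, at least 130-fold lower against the floor of 3 counts per library (FDR 0.887, not called), and it was counted in only 1 of the 2 KE libraries. Rgs1 overlapped, and Rgs2 lay at 975 and 752 against 409 and 653 CPM.

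Hypoxia and glycolysis genes had 7 of 34 lower and 0 higher at the nominal level and a median of -0.66, or -0.36 without WT 1. A negative log2 fold change was found for 31 (47.2% of all genes). Both KO libraries lay below both WT libraries for 21 (15.3% of all genes). The glucose transporters Slc2a1, at 555 and 317 against 246 and 187 CPM (-1.01, FDR 0.887), and Slc2a3, at 409 and 282 against 77.4 and 168 CPM (-1.49, FDR 0.887), did not overlap. Pfkl, the liver form of phosphofructokinase, lay at 166.5 and 113.5 against 36.1 and 65.2 CPM (-1.47, FDR 0.887), and P4ha1, a hypoxia-induced collagen hydroxylase subunit, at 310 and 261 against 75.0 and 159 CPM (-1.29, FDR 0.887). No gene of the list was called.

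MYC and ribosome biogenesis genes leaned higher, with 0 of 40 lower and 6 higher at the nominal level and a median of 0.45, or 0.28 without KO 1. Positive log2 fold changes were found for 33 (49.1% of all genes). Nhp2, a snoRNP protein, lay at 86.1 and 72.8 CPM in WT and 185 and 192 CPM in KO (1.25, SE 0.40, FDR 0.887). Gnl3, which encodes nucleostemin, lay at 15.9 and 33.5 against 70.2 and 100.2 CPM (1.79, FDR 0.887), and the prohibitin Phb2 at 130.2 and 125.5 against 241 and 204.5 CPM (0.80, FDR 0.887). Nuclear genes of oxidative phosphorylation had 32 of 40 positive values (49.1% of all genes), none at the nominal level, and a median of 0.15. Mitochondrial ones had a median of 0.07 over 7 genes. Cell cycle genes had 19 negative (47.2% of all genes) and 21 positive values (49.1% of all genes) of 40, none at the nominal level, and a median of 0.01. AP-1, EGR and NR4A activation genes had a median of 0.40 over 20 genes (-0.12 without KO 1), with 1 lower (Fosl2, 130 and 85.0 against 49.8 and 63.2 CPM) and 1 higher (Egr2). Genes of dissociation stress had 4 of 22 lower and a median of -0.02, with Btg2 at 606 and 746 against 329 and 428 CPM.

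The strain names given for the knockout record a 129P2 origin, so genes close to Tyk2 were listed separately. Of the 105 genes tested that start within 10 Mb of Tyk2 on chromosome 9, 0 were called, 3 were lower and 3 higher at the nominal level, beside 2.54% and 2.28% of all genes, and the median was -0.02. Cdkn2d, a cell cycle inhibitor, had the smallest p (log2 fold change -1.69, SE 0.53, FDR 0.887). S1pr5, named above among the trafficking genes, was also 1 of the 3 lower genes (-5.56, SE 1.86, FDR 0.887).

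The KO values were set beside those of kinase-inactive TYK2, which share the WT libraries with them, so no overlap between the comparisons is given, and the KE values of the 7 DEG stand in their paragraphs above. KEvsWT had 11 DEG (0.0828%). The median log2 fold change of the 188 ISG was -1.14 in KO and -1.18 in KE, that of the robust ISG -1.96 and -1.89, of the IFIT and MX group -3.90 and -3.48, of the p200 family -2.14 and -2.44, of hypoxia and glycolysis genes -0.66 and -1.06, and of MYC and ribosome genes 0.45 and 0.37. Some other lists lay further apart. In KO and KE the medians were 0.01 and -0.44 for cell cycle genes and -1.09 and -2.17 for immunity-related GTPases. Those of the TRIM list were -1.13 and -0.52, and those of macrophage and monocyte markers -0.67 and 0.65. In KOvsKE, which needs no WT library, edgeR called 0 of 13279 genes, with 481 (3.62%) at the nominal level, while DESeq2 called 157. Among the DEG of KOvsWT, the KOvsKE log2 fold change ran from -1.69 for Gm20743 to 1.36 for Car2, and the FDR was 1 for each of the 7.

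Effects of KO in NK cells came from separate WT libraries, and there edgeR called 0 genes, with 837 (6.3%) at the nominal level. The median of the 188 ISG was -0.95 in NK cells and -1.14 in CD8+ T cells, and that of the IFIT and MX group -2.58 and -3.90. At the nominal level the effects differed for 21 of the 188 ISG and for 703 of all genes (5.29%). Genes of hypoxia and glycolysis had a median of -1.06 in NK cells and -0.66 in CD8+ T cells, and cell cycle genes -1.32 and 0.01, with 10 of 40 cell cycle genes differing at the nominal level. In the NK libraries, both KO libraries lay below both WT libraries for the summed markers of 5 of the 11 cell kinds listed. Macrophage and monocyte genes summed to 19550 and 17910 CPM in WT and to 8195 and 271 CPM in KO, neutrophil genes to 13.3 and 8.48 against 0.391 and 1.55 CPM, and B cell genes to 549 and 652 against 446 and 290 CPM, with median log2 fold changes of -2.93, -1.95 and -1.81. The others were the erythroid list and that of CD4 and regulatory T cells. Their part in the NK values was not tested. By FDR, Trdc alone passed in that contrast.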

How the data were processed

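RNA from 12 libraries of sorted CD8+ T and NK cells (6 groups of 2) was made into cDNA with Smart-seq2 and Nextera. The authors trimmed 50-base single-end reads with Trimmomatic, aligned them with STAR to GRCm38 and deposited raw counts of uniquely aligned reads in exons, for 54232 gene identifiers. Here the counts were scaled by TMM, the 13279 genes averaging 10 or more normalized counts over the 12 libraries were fitted with edgeR 4.0.16 (quasi-likelihood, robust, R 4.3.3) with a mean per group, and p-values were adjusted by Benjamini-Hochberg over all of them. The study used DESeq2, and DESeq2 1.42.0 was run as an alternative. The 4 libraries held 11825714 to 14732882 counts, and the spread between replicates, not depth, set the precision for abundant genes. SE was taken from the fold change and the F statistic. The script was tested on simulated data, with a pass rule applied only at a spread well below that of these data.

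Named genes were every DEG, the 12 lower and 12 higher genes of smallest unadjusted p with at least 20 CPM in the higher group and no overlap, fixed lineage, interferon and effector genes, up to 4 genes of smallest p per list, and members whose count is given. Outside that rule, and chosen after their values were seen, are Cmpk2, Gbp5, Herc6, Ifi208, Ifit3, Lgals3bp, Mavs, Mx1, Phf11b, Rnf213, Rsad2, Car5b, Cd4, Tcrg-C2, Klrb1a, Klrb1b, Klrc1, Klrd1 and Klrk1. The comparison, the lists and the rule were chosen with earlier results of these data known. Some genes that the rule names are not reported here. Promoters came from RefSeq (GRCm38.p6).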

Additional observations from a re-analysis of the deposited data

Results flagged for a closer look

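The KO effect on Trdc differed between cell types by the interaction term of the edgeR fit. The log2 fold change was -6.13 in CD8+ T cells and 0.76 in NK cells, a difference of -6.88 (FDR 0.0279). Trdc had 3 and 1 counts in the KO libraries of CD8+ T cells. The call was lost when any of the 4 libraries was left out, with differences of -7.74 to -6.41 and FDR of 0.0653 to 0.168, and without KO 2 the gene called was Car2.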

How the results depend on the processing

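The number of DEG in KOvsWT, 7 here, was 124 without the filter on low counts (83 lower, 41 higher), 234 with DESeq2 (125 lower, 109 higher), 0 in a fit of the 6 CD8 libraries alone (12669 genes tested, filtered and scaled anew), 1 in such a fit of the 4 compared libraries (12444 genes, Ifi27l2a) and 1 to 6 when 1 library was left out. Scaling with DESeq2 size factors gave 7, and the filter of edgeR gave 6, without Trim30a. The 7 DEG kept their direction in every alternative. The difference between CD8+ T and NK effects, with 1 gene here, gave 131 without the filter, 198 with DESeq2 and 0 to 1 with 1 library left out (Car2 in place of Trdc without KO 2). KOvsKE, with 0, gave 82 and 157 under the first pair of alternatives. KEvsWT, with 11, gave 185 and 328, 0 in the fit of the 6 CD8 libraries, 0 without WT 1 and 4 without WT 2. With replicate number as a block the counts were 3 (Car2, Klrb1f and Trdc), 0 for the difference between cell types (Trdc FDR 0.082), and 4 for KEvsWT; deviations of same-numbered libraries from their group means correlated at -0.0146 between KO and WT of CD8+ T cells and at 0.00311 to 0.0378 between CD8+ T and NK cells of 1 genotype (1 value for each of 3 genotypes), so the libraries share only a number. The median of the robust ISG was -2.11 with edgeR's own filter, -2.22 as log2 CPM with a prior count of 2, and -2.21 to -1.67 with 1 library left out. The number of ISG lower at an unadjusted p under 0.05 was 47 to 83 over all alternatives, a check added after seeing the data. Signs turned for uncalled genes. Tyk2 was -0.0196 with DESeq2 size factors and -0.0203 with DESeq2. With 1 library left out the log2 fold change ran from -0.34 to 0.49 for Tyk2, -0.24 to 0.27 for Cd8a, -0.0666 to 0.19 for Cd8b1, -1.67 to 0.0215 for Irf9, -1.09 to 0.17 for Prf1, -0.33 to 0.19 for Pdcd1, -0.73 to 0.62 for Tcf7, -0.20 to 0.77 for Trac, -2.24 to 4.82 for Xist and -1.37 to 0.72 for Ddx3y. The cause of these changes was not tested. Of the list medians recomputed, 541 moved by less than the replicate spread and 59 by more. Medians near 0 turned sign with 1 library left out, from -0.55 to 0.17 for checkpoint genes, -0.59 to 0.02 for fate factors, -0.39 to 0.20 for naive and memory genes, -0.65 to 0.28 for interferon regulatory factors, -0.26 to 0.47 for feedback regulators, -0.28 to 0.18 for the cell cycle, -0.33 to 0.30 for mitochondrial oxidative phosphorylation, -0.17 to 0.14 for NK-type receptors, -0.23 to 0.205 for the T cell receptor complex and -0.32 to 0.20 near Tyk2, while the granule list ran from -0.41 to -0.07 and dissociation stress from -0.33 to -0.01.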
